A study of Mus musculus with 18 samples.

Results

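Retinal pigment epithelium (RPE) engulfs the tips that photoreceptors shed, and 10 genes of that engulfment machinery were followed here through all 18 libraries of mouse RPE in the series. They were taken by symbol as a fixed list of bridging ligands (Gas6, Pros1, Mfge8), surface receptors (Mertk, Tyro3, Axl, Itgav, Itgb5, Cd36) and 1 cytoplasmic kinase (Ptk2), and make up 10 of the 21859 gene rows of the count table. All 10 were found and all passed the filter on low counts, with at least 32 counts in every library. The libraries fall into 4 groups: RPE of young mice (Young, 7 libraries), RPE of aged mice with no vector named (Old, 4), RPE of aged mice treated with AAV2-tTA (Old control, 3) and RPE of aged mice treated with AAV2-tTA plus TRE-OSK (Old OSK, 4). AAV2 is an adeno-associated virus used as a gene vector. tTA is a transactivator that tetracyclines switch off, TRE is the promoter it drives, and OSK is the set Oct4, Sox2 and Klf4, transcription factors used to reprogram cells. The Old control and Old OSK groups thus share the tTA vector and differ in the TRE-OSK vector. Strain, sex, age in months, vector dose, time after treatment and whether eyes were pooled are not given in the labels used here, so the spread between libraries may be biological or technical.

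Each day the RPE removes shed outer segments in a sequence of binding, internalisation and digestion. The integrin of the alpha V subunit (Itgav) and the beta 5 subunit (Itgb5) binds the debris through the secreted bridge MFG-E8, and focal adhesion kinase (Ptk2) relays the signal to the receptor tyrosine kinase MERTK. MERTK is engaged through the bridges GAS6 and protein S (Pros1) and drives engulfment, while the scavenger receptor CD36 sets the pace of uptake. TYRO3 and AXL are relatives of MERTK (together the TAM receptors). Loss of Mertk in the RPE leaves debris uncleared and leads to photoreceptor degeneration.

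Levels below are given in CPM, read counts divided by library size and scaled between libraries by TMM. Library totals were 19629563 to 31914550 counts in Young, 19167774 to 32348136 in Old, 25130319 to 26037720 in Old control and 18104828 to 28489232 in Old OSK. Of the 10 RPE markers checked Best1, a chloride channel of the RPE, was low at 1.2 to 1.9 CPM as a group mean, and no marker was at 0. Old control replicate 2 stood apart, with a summed RPE marker level of 20300 CPM against 53750 and 62410 in the other Old control libraries and a summed rod marker level of 17880 CPM against 1718 and 3541. Old replicate 4 had the lowest RPE marker sum of its group, 26970 CPM against 45930 to 47230. The letter M, whose meaning the labels do not give, stands in the names of 3 Young, 0 Old, 2 Old control and 1 Old OSK libraries. RPE marker sums ran from 39520 to 65420 CPM in Young and from 15300 to 29780 in Old OSK. In bulk RNA a smaller share of RPE cells and less RNA per RPE cell cannot be told apart.

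The members are spread over several chromosomes (GRCm38, GENCODE vM21 annotation, all protein-coding). Mertk (chr2:128698956-128802894), Tyro3 (chr2:119797733-119818104) and Itgav (chr2:83724397-83806916) share chromosome 2 on the plus strand. Mfge8 (chr7:79133768-79149060) and Axl (chr7:25757273-25788705) lie on the minus strand of chromosome 7, and Pros1 (chr16:62854307-62929346) and Itgb5 (chr16:33829665-33949338) on the plus strand of chromosome 16. Gas6 (chr8:13465374-13494490), Cd36 (chr5:17781690-17888801) and Ptk2 (chr15:73205102-73423280) are all on minus strands. Exons of the Itgav gene overlap those of Gm13684 on the opposite strand over 634 bases, or 5.9% of its exonic length, and those of Gas6 overlap Tmem255b over 34 bases, or 1.33%. Whether strand was used in counting is not given in the sources used here, so reads in these stretches could belong to either partner.

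The start regions of the 3 members with the largest spread between Young and Old OSK in opposite directions, Mertk and Itgav (lower) and Mfge8 (higher), are printed below from the RefSeq table for GRCm38.p6, as 250 bases before and 50 after the annotated start, 5′ to 3′ on the gene's strand. They were picked with the expression values known. Capitals mark the letters GGGCGG on either strand (CCGCCC as read on the other), the GC box bound by Sp and Klf family factors. The Mertk window is chr2:128698665-128698964 (plus strand), the Itgav window chr2:83724147-83724446 (plus strand) and the Mfge8 window chr7:79149011-79149310 (minus strand).
Mertk: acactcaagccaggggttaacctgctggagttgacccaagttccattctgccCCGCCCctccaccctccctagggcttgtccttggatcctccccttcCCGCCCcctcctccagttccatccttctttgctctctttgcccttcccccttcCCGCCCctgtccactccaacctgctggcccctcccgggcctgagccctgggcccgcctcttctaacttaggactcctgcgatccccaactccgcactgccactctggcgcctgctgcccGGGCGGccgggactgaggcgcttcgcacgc
Itgav: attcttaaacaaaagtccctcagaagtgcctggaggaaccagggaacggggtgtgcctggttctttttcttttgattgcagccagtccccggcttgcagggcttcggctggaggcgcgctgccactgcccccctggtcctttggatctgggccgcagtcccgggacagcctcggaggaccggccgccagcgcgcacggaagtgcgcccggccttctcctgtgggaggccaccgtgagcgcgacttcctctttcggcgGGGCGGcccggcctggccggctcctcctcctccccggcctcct
Mfge8: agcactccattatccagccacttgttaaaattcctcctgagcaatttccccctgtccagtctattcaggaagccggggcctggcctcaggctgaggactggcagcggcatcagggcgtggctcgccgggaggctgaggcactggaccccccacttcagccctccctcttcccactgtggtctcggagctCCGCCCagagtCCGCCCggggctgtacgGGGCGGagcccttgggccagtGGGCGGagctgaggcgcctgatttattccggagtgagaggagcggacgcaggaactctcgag
Both the Mertk and the Mfge8 window held 4 GC boxes and the Itgav window 1. All 9 members with an entry held at least 1 (up to 6, in Tyro3), against 35.7% of the 32851 start regions of the table. GC contents were 66% for Mertk, 67.3% for Itgav and 64.3% for Mfge8, against a median of 52.7% over all start regions. The shorter letters CACCC, counted on either strand and able to overlap a GC-rich run, occurred once each in the Mertk and Itgav windows and not in the Mfge8 window, against 57.5% of all start regions. None of the 9 members with an entry (Ptk2 has none) held the E-box letters CATGTG on either strand, found in 14.2% of start regions. The palindrome CACGTG, found in 7.15%, was absent from the same 9 windows. So was TAATCC, the letters of an Otx site, found in 7.06% on either strand. These are descriptions of letters, not of binding.

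Levels per kilobase of exon set genes side by side only roughly. Lengths join the exons of all annotated transcripts, from 2.548 kb for Gas6 (1 transcript) to 11.803 kb for Ptk2 (15), so ranks and shares depend on them. On this scale the ligand Gas6 was the most abundant member in Young RPE at 117 CPM per kb. Both integrin subunits (Itgav 86.6, Itgb5 69.4) and Mertk (49.7) followed. Tyro3 (23.6) and Mfge8 (13.9) stood lower, Ptk2 (7.02), Axl (6.35) and Pros1 (5.88) lay close together, and Cd36 was lowest at 0.808 CPM per kb. In Old OSK the order of level per kb was Gas6 (153), Itgb5 (53.6), Mfge8 (36.8), Itgav (32.7), Mertk (18.3) and Tyro3 (16.3), with Axl (10.1), Pros1 (8.75), Ptk2 (4.45) and Cd36 (2.07) below them. Mfge8 had thus moved from the sixth place to the third, ahead of both Itgav and Mertk.

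**Figure D1:**
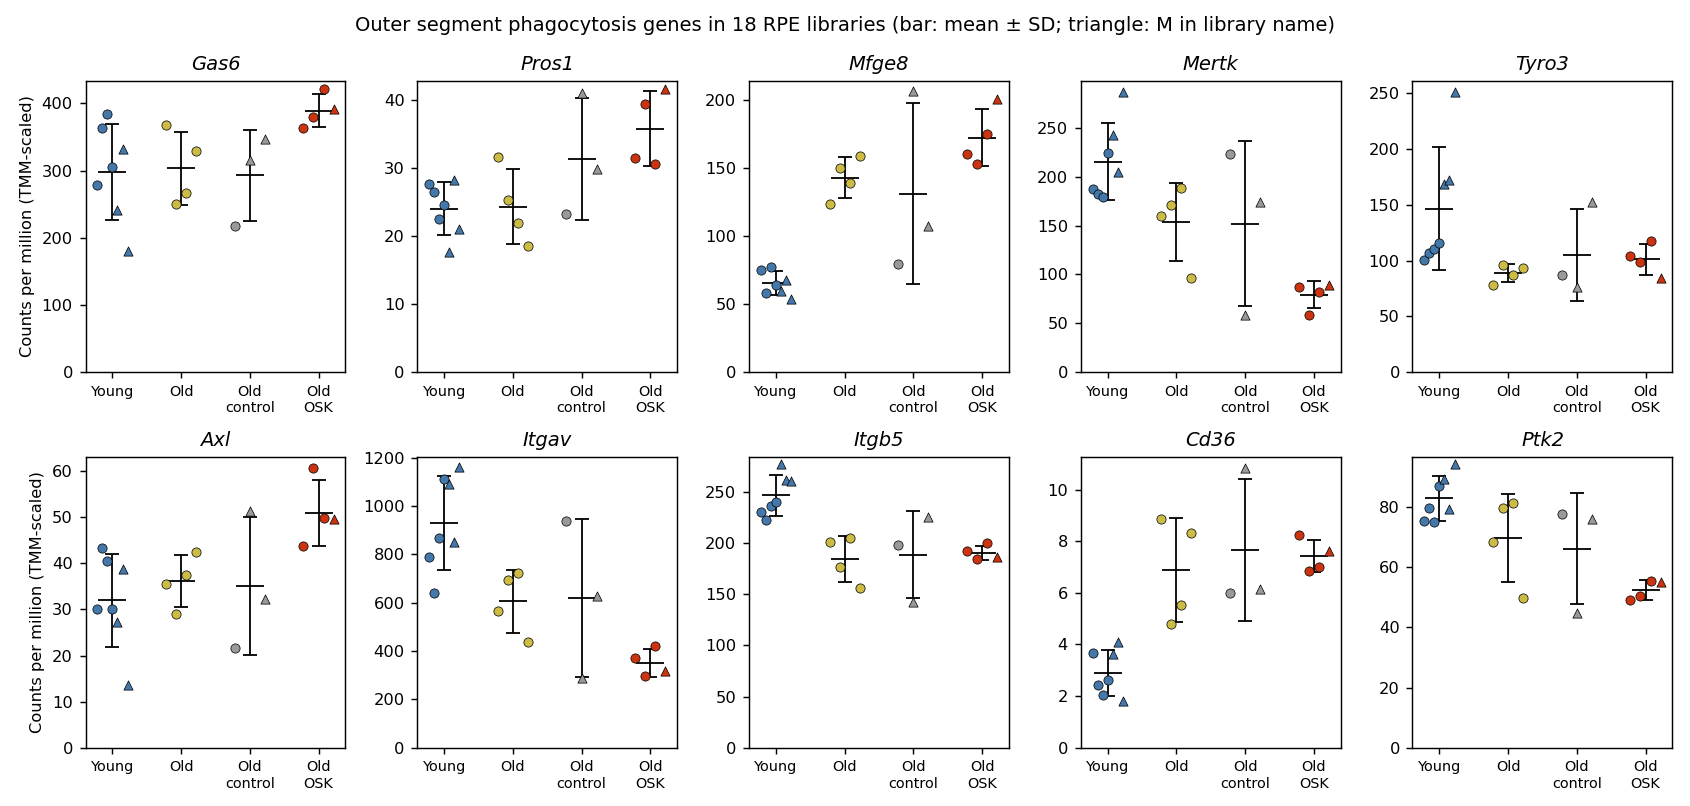
TMM-scaled CPM (linear axis from 0) of each of the 10 genes, in a panel each, with a point for each of the 18 libraries (triangles: M in the library name) and the group mean ± SD as a bar. The 4 Old OSK libraries lie below all 7 Young libraries for Mertk, Itgav, Itgb5 and Ptk2 and above all 7 for Mfge8, Cd36, Pros1 and Axl.

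The comparison of old with young RPE asked how these genes differ with age. In old RPE the bridge Mfge8 was 2.19-fold and the scavenger receptor Cd36 2.37-fold the young level, and the integrin subunit Itgb5 was lower. These were the 3 of 10 members that changed at an adjusted p under 0.05 in edgeR's quasi-likelihood test, 2 higher and 1 lower, where 9.56% of the 15944 tested genes changed (5.4% higher and 4.16% lower). Neither TAM ligand changed, and no TAM receptor passed the test. The median log2 difference of the 10 was -0.12, against 0 over all tested genes.

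Among the ligands, Mfge8 stood at 54 to 77.5 CPM in Young (median 63.9) and at 124, 150.2, 139 and 159 CPM in the Old libraries. The lowest Old library was above the highest Young library, and the log2 fold change was 1.13 (SE 0.18, adjusted p = 0.00195). Gas6 stood at 180 to 384 CPM in Young (median 306) and at 367, 250.1, 266 and 329 CPM in Old, so the groups overlapped throughout (log2 fold change 0.03, SE 0.18, adjusted p = 0.944). Pros1, which encodes protein S, stood at 17.6 to 28.3 CPM in Young (median 24.6) and at 31.6, 25.3, 21.9 and 18.5 CPM in Old (0.02, SE 0.17, adjusted p = 0.965). The Mfge8 difference had the same size in the 4 Young libraries without the letter M against the 4 Old ones (1.06, adjusted p = 0.0174).

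Among the receptors, Cd36 was the least abundant, at 1.8 to 4.1 CPM in Young (median 2.61) and 8.86, 4.81, 5.55 and 8.31 CPM in Old. Its groups did not overlap, with a log2 fold change of 1.25 (SE 0.24, adjusted p = 0.00652). Without the M-named libraries the log2 fold change was 1.36, with an adjusted p of 0.0547. Itgb5 stood at 222 to 277 CPM in Young (median 239.6) and at 200.7, 177, 204 and 156 CPM in Old. All 4 Old libraries were below every Young one, and the log2 fold change was -0.42 (SE 0.11, adjusted p = 0.0304). That call was lost without Young replicate 5, 6 or 7 or Old replicate 2 or 4 (adjusted p of up to 0.142, without Old replicate 4), and in the libraries without M (-0.33, adjusted p = 0.152).

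Its partner subunit Itgav stood at 642 to 1160 CPM in Young (median 867) and at 568, 694, 724 and 439 CPM in Old. The lowest Old libraries were under the young range and the others within it, with a log2 fold change of -0.62 (SE 0.25) that missed the threshold (adjusted p = 0.117). Mertk stood at 179 to 287 CPM in Young (median 205) and at 160.2, 172, 188 and 96.5 CPM in Old. Only Old replicate 3 reached the young range, and replicate 4 was far below the others (-0.48, SE 0.27, adjusted p = 0.248). Axl, at 13.7 to 43.3 CPM in Young (median 30.2) and 35.5, 29.1, 37.6 and 42.5 CPM in Old, overlapped completely (0.18, SE 0.25, adjusted p = 0.68).

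Tyro3, the remaining TAM receptor, stood at 100.5, 107, 111, 116, 168, 172 and 252 CPM in Young and at 77.7, 96.1, 87.1 and 93.2 CPM in Old. The groups did not overlap, but the adjusted p was 0.0645 (log2 fold change -0.73, SE 0.24). The 3 highest Young values were those of the 3 M-named libraries, and against the 4 other Young libraries the log2 fold change was -0.29 (adjusted p = 0.108). Non-overlap between Young and Old held for 4 of the 10 members (Mfge8, Cd36, Itgb5 and Tyro3), against 9.3% of all tested genes. Ptk2, the kinase between integrin and MERTK, stood at 74.8 to 94.2 CPM in Young (median 79.8) and at 68.4, 79.7, 81.2 and 49.7 CPM in Old, again lowest in Old replicate 4 (-0.25, SE 0.14, adjusted p = 0.267).

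Macrophages also make MFG-E8 and CD36, and 6 of 8 macrophage markers were higher in Old (median log2 fold change 1.53), with none at 0 in any group. Their summed level was 435 to 645 CPM in Young and 369.6 to 617 CPM in Old, a sum led by Csf1r, which followed Mertk across libraries (below). Without Csf1r, a choice made after its values were seen, the sum was 23.5 to 43.4 CPM in Young and 70.03 to 167 CPM in Old, with no overlap. Rod markers ran from 437 to 3072 CPM in Young and 2177 to 7325 CPM in Old. Their median log2 fold change was 1.39, though 0 of 8 passed the test. With a rod score (mean log2 CPM of the rod markers) as covariate, log2 fold changes were 0.95 for Mfge8, 1.14 for Cd36 and -0.31 for Itgb5. The part of other cell types in the Mfge8 and Cd36 results was not tested.

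**Figure D2:**
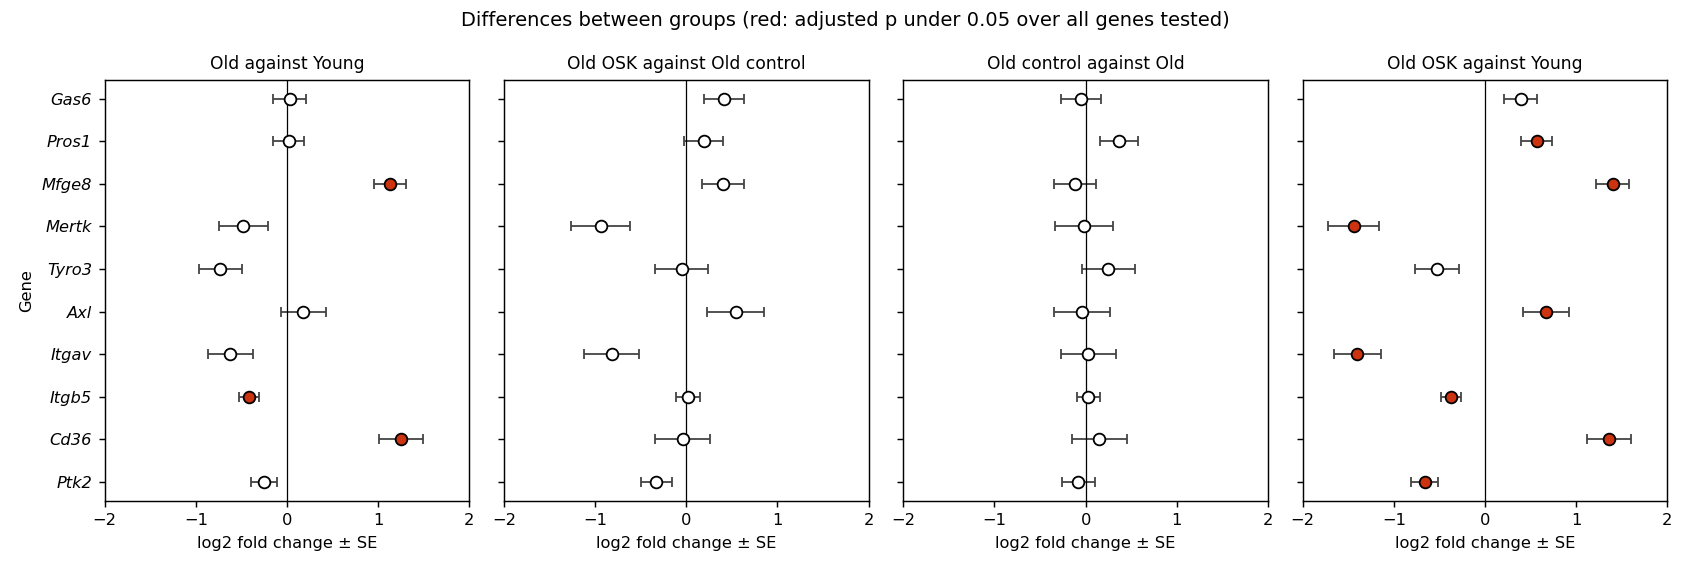
Log2 fold change of each gene (points) with its standard error (bars) in the 4 comparisons, a panel each, in red where the adjusted p was under 0.05. Red points number 3 for Old against Young, 0 for Old OSK against Old control, 0 for Old control against Old and 8 for Old OSK against Young.

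The comparison of Old OSK with Old control asked what the OSK vector adds to the tTA vector in aged RPE. No member changed, at a background of 0.728% of tested genes called. Mertk, Itgav and Ptk2 were on average lower and the ligands on average higher, but Old control replicate 2 was as low as the lowest Old OSK libraries for Mertk, Itgav and Ptk2. 2 of 10 members, Mertk and Itgav, had an unadjusted p under 0.05, against 26.3% of all tested genes. DESeq2 also called 0 members, where it called 1603 of 15907 genes. Over the 6 libraries whose replicate numbers the groups share, a fit with the number as a block called 0 members too, where 3.02% of the genes tested in that fit were called. The median log2 difference was -0.01 for the members and -0.03 for all genes.

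Mertk stood at 223, 58.9 and 174 CPM in Old control and at 87.2, 58.7, 82.2 and 89 CPM in Old OSK. The other 2 control libraries were both far above the OSK libraries, and replicate 2 was level with the lowest of them (log2 fold change -0.94, SE 0.32, adjusted p = 0.1). Itgav stood at 939, 288 and 629 CPM in Old control and at 371, 295, 423 and 318 CPM in Old OSK, with replicate 2 again the lowest control (-0.82, SE 0.3, adjusted p = 0.114). Ptk2 followed the same order, at 77.6, 44.8 and 75.8 CPM in Old control and 49.1, 50.3, 55.5 and 55.2 CPM in Old OSK (-0.33, SE 0.17, adjusted p = 0.24). Itgb5 showed no such shift, at 197.5, 142 and 226 CPM in Old control and 192, 184, 199.6 and 186 CPM in Old OSK (0.02, SE 0.13, adjusted p = 0.961).

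Mfge8 stood at 79.7, 207 and 107 CPM in Old control and at 161, 153, 176 and 201 CPM in Old OSK. Here replicate 2 was the highest control and lay above all OSK libraries (log2 fold change 0.4, SE 0.23, adjusted p = 0.29). Gas6 was the only member whose groups did not overlap, at 217, 315 and 346 CPM in Old control and 363, 380.4, 421 and 392 CPM in Old OSK, against 12.4% of all genes, yet it did not pass the test (0.41, SE 0.22, adjusted p = 0.252). Pros1 stood at 23.2, 40.9 and 29.8 CPM in Old control and 31.5, 39.5, 30.6 and 41.6 CPM in Old OSK, and overlapped (0.19, SE 0.21, adjusted p = 0.622).

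Axl, at 21.7, 51.3 and 32.2 CPM in Old control and 43.8, 60.8, 49.8 and 49.6 CPM in Old OSK, was likewise highest among controls in replicate 2 (0.54, SE 0.31, adjusted p = 0.287). Tyro3 stood at 86.6, 76.2 and 152.5 CPM in Old control and at 104, 99, 118 and 84.1 CPM in Old OSK, with control values on either side of the OSK values (-0.05, SE 0.29, adjusted p = 0.937). Cd36 stood at 5.98, 10.8 and 6.15 CPM in Old control and at 8.23, 6.86, 7 and 7.63 CPM in Old OSK (-0.04, SE 0.3, adjusted p = 0.952). For Tyro3 and Cd36 the OSK libraries lay inside the range of the control libraries.

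Leaving out Old control replicate 2 gave 4 called members: Mertk (-1.35, adjusted p = 0.00485), Itgav (-1.18, adjusted p = 0.00726) and Ptk2 (-0.57, adjusted p = 0.0217) lower and Mfge8 (0.86, adjusted p = 0.00709) higher. In that fit 17.9% of all tested genes were called, against 0.0804% without Old control replicate 1, when 0 members were called and Mertk stood at -0.56. Leaving out Old replicate 4 beside Old control replicate 2, a choice made after the data were seen, called 4 members and 23.3% of tested genes. With the letter M as covariate 0 members were called as well (Mertk -0.93, adjusted p = 0.192), and no split by that letter leaves 2 libraries of each group. RPE marker sums in Old control replicates 1 and 3 were 62410 and 53750 CPM, above all 4 Old OSK libraries, and no RPE marker passed the test between Old OSK and Old control (0 of 10, median -0.83). The part of RPE content in these member values was not tested.

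Old control against Old asked what the tTA vector and its delivery do in aged RPE. No member differed, no member had an unadjusted p under 0.05, and 0% of the tested genes were called by edgeR (596 genes, or 3.74%, at an unadjusted p under 0.05, and 0 by DESeq2). Member log2 differences ran from -0.12 for Mfge8 to 0.37 for Pros1, all with an adjusted p of at least 0.9. These differences could not be told from the spread between libraries.

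Old OSK against Young set the vector-treated aged RPE beside young RPE, and so joins age, both vectors and OSK in a single difference. It shares its Young libraries with the comparison by age. In Old OSK the engulfment receptor Mertk stood at 0.368 of its young level and Itgav, Itgb5 and Ptk2 were also lower, while Mfge8, Pros1, Axl and Cd36 were higher. These 8 of 10 members changed, 4 in each direction, where 46.4% of all tested genes changed (25.1% higher and 21.4% lower). The TAM receptor Tyro3 and the ligand Gas6 did not pass the test.

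The 3 lower members with the largest differences were Mertk (log2 fold change -1.44, SE 0.28, adjusted p = 0.000951), Itgav (-1.4, SE 0.26, adjusted p = 0.00067) and Ptk2 (-0.66, SE 0.15, adjusted p = 0.0022). The highest Old OSK library was at 89 CPM for Mertk, against a lowest Young value of 179 CPM, and at 423 CPM for Itgav, against 642 CPM. Mean levels fell from 215 ± 39.3 to 79.2 ± 14 CPM for Mertk and from 930.0 ± 193 to 352 ± 57.1 CPM for Itgav (SD, n = 7 and 4, tested by edgeR). Itgb5, the partner of Itgav, was lower by less, from 247 ± 20 to 190.5 ± 6.92 CPM (-0.37, SE 0.11, adjusted p = 0.0122 in edgeR, n = 7 and 4), and its Old OSK mean was close to that of Old (184 CPM).

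Mfge8 was the strongest rise among ligands, from 65.2 ± 8.81 to 173 ± 21.3 CPM (1.4, SE 0.18, adjusted p = 5.44e-05 in edgeR, n = 7 and 4). Cd36 rose from 2.9 ± 0.896 to 7.43 ± 0.63 CPM (1.36, SE 0.24, adjusted p = 0.000536 in edgeR, n = 7 and 4). Pros1 (0.57, SE 0.17, adjusted p = 0.0116) and Axl (0.67, SE 0.25, adjusted p = 0.0356) rose by less. For Axl the lowest Old OSK value, 43.8 CPM, was just above the highest Young value, 43.3 CPM. Gas6 (0.39, SE 0.18, adjusted p = 0.0867) and Tyro3 (-0.53, SE 0.24, adjusted p = 0.0804) missed the threshold. Old OSK and Young did not overlap for 8 members, the same 8 that were called, against 28.2% of all tested genes.

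The calls of 2 members rested on few libraries: that of Axl was lost without any one of Young replicates 1, 4 or 5 or Old OSK replicates 1, 2, 3 or 4 (adjusted p of up to 0.112), and that of Pros1 without Old OSK replicate 4 (0.46, adjusted p = 0.063). Rod transcripts moved with this comparison: 7 of 8 rod markers were higher in Old OSK, with sums of 2838 to 15190 CPM (highest in replicate 4) against 437 to 3072 CPM in Young. With a rod score as a covariate, 5 members and 28.6% of tested genes were called, and Pros1 (0.31, adjusted p = 0.237), Axl (0.57, adjusted p = 0.206) and Itgb5 (-0.22, adjusted p = 0.192) were lost. RPE markers moved as well, 9 of 10 lower with a median log2 fold change of -1.26, a size close to that of Mertk and Itgav. Of the macrophage markers 7 were higher and Csf1r lower, and their sum without Csf1r was 139.6 to 259 CPM in Old OSK. Among markers of other cells, 4 of 6 for cones were higher, and 0 of 8 for endothelium and 0 of 5 for red cells changed. Lower were 3 of 7 for stroma, 2 of 6 for Müller glia and 2 of 5 for melanocytes and Schwann cells. The Müller glia list shares Rlbp1 with the RPE list. Without Rlbp1 and Apoe the Müller glia sum was 2523 to 2910 CPM in Young and 2203 to 2584 CPM in Old OSK. In Old against Young 1 cone marker was higher, 2 stroma markers and 1 of 10 RPE markers (median over the RPE list -0.31) were lower, and no marker of endothelium, red cells, Müller glia or melanocytes and Schwann cells changed. The parts of these cell types in the member values were not tested.

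Within the TAM receptors the balance of transcripts differed between groups, described here without a test since the shares were chosen after the levels were seen. Mertk made up 57.2% to 67.7% of the summed CPM per kb of Mertk, Tyro3 and Axl in the Young libraries. Its share was 65.3%, 65%, 66.9% and 48.7% in Old and 73.8%, 37.7% and 56.4% in Old control. In Old OSK it was 44.1%, 32.5%, 39.6% and 46.7%, below all 7 Young libraries and all 4 Old ones. Tyro3 took 36.8%, 38.4%, 39.7% and 30.9% in Old OSK, and in replicates 2 and 3 it was about level with or above Mertk. Axl rose from 8.51% ± 3.49 in Young (n = 7) to 22.8% ± 4.35 in Old OSK (n = 4) as a mean share.

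**Figure D3:**
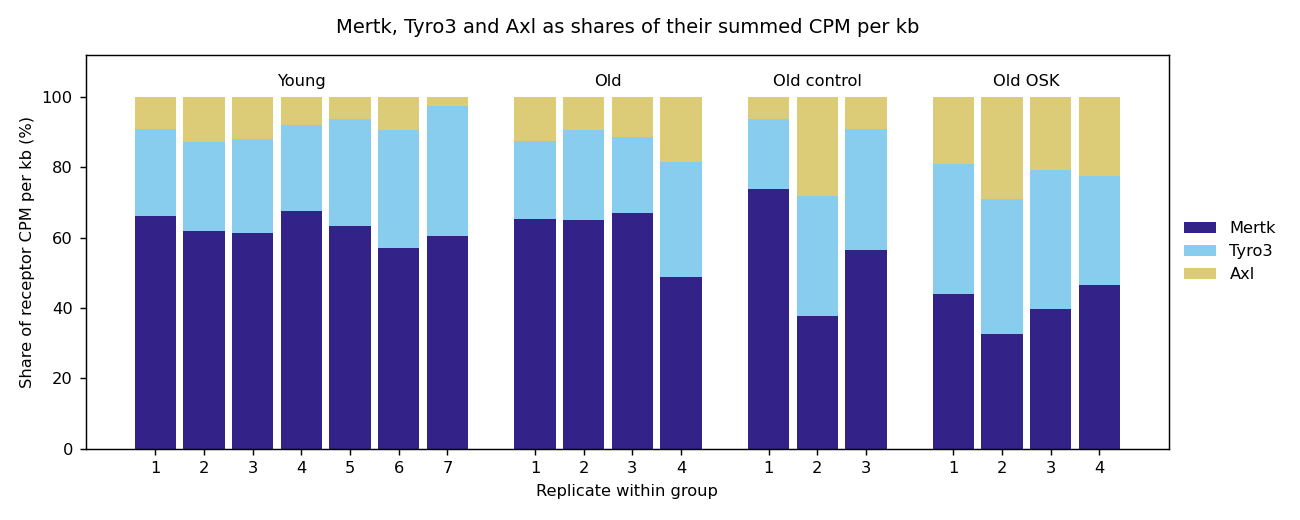
Share of the summed CPM per kb of the 3 TAM receptors taken by Mertk, Tyro3 and Axl in each of the 18 libraries, in stacked bars that add to 100% and are ordered by group. Mertk holds 57.2% or more in all 7 Young libraries and 46.7% or less in all 4 Old OSK libraries.

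Among the bridging ligands Gas6 held most of the transcripts per kb throughout, at 85.1% ± 2.56 in Young (n = 7) and 76.2% ± 3.74 in Old (n = 4). The Mfge8 share was 10.5% ± 1.86 in Young and 19.9% ± 3.69 in Old, and Pros1 kept between 2.71% and 5.88% over all libraries. The ligand shares in Old control and Old OSK were near those in Old, with a mean Mfge8 share of 18.1% and 18.5%.

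Across the 18 libraries several members ran together and others ran against them, given here as a description, since the points share groups and a scaling. Mertk correlated with Itgav (Pearson r of log2 CPM 0.97, and 0.92 once group means were removed) and with Ptk2 (0.97 and 0.93). Gas6 correlated with Axl (0.88 and 0.84). Negative correlations were seen, among others, at -0.85 (-0.78 within groups) for Mfge8 with Mertk and -0.81 (-0.75) for Mertk with Axl. Tyro3 was less closely tied to these receptors, with an r of 0.52 with Mertk, 0.56 with Itgav and 0.54 with Ptk2, and of 0.75 with Itgb5. Mfge8 and Cd36 rose together over all libraries (0.85) and less so within groups (0.43).

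Mertk, Itgav and Ptk2 followed the sum of the RPE markers. That sum was led by Rgr and Ttr, with Young means of 17750 and 15980 CPM. Otx2 (760), Tyr (598), Mitf (115.5) and Best1 (1.21) added little, and Best1 was higher in Old OSK (1.91). Mertk correlated with the RPE marker sum at 0.97 over all libraries and 0.95 within groups, Itgav at 0.92 and 0.85, and Ptk2 at 0.91 and 0.83. Itgb5 had an r of 0.7 (0.8 within groups), and Tyro3 only 0.45 (0.36). Axl ran against the RPE sum (-0.82 and -0.73), as did Mfge8 (-0.76 and -0.69). With the macrophage sum without Csf1r, Mfge8 had an r of 0.85 over all libraries and Cd36 0.82. Once group means were removed, the r pooled over all libraries was 0.01 for Mfge8 and -0.1 for Cd36. No r was taken inside a single group.

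**Figure D4:**
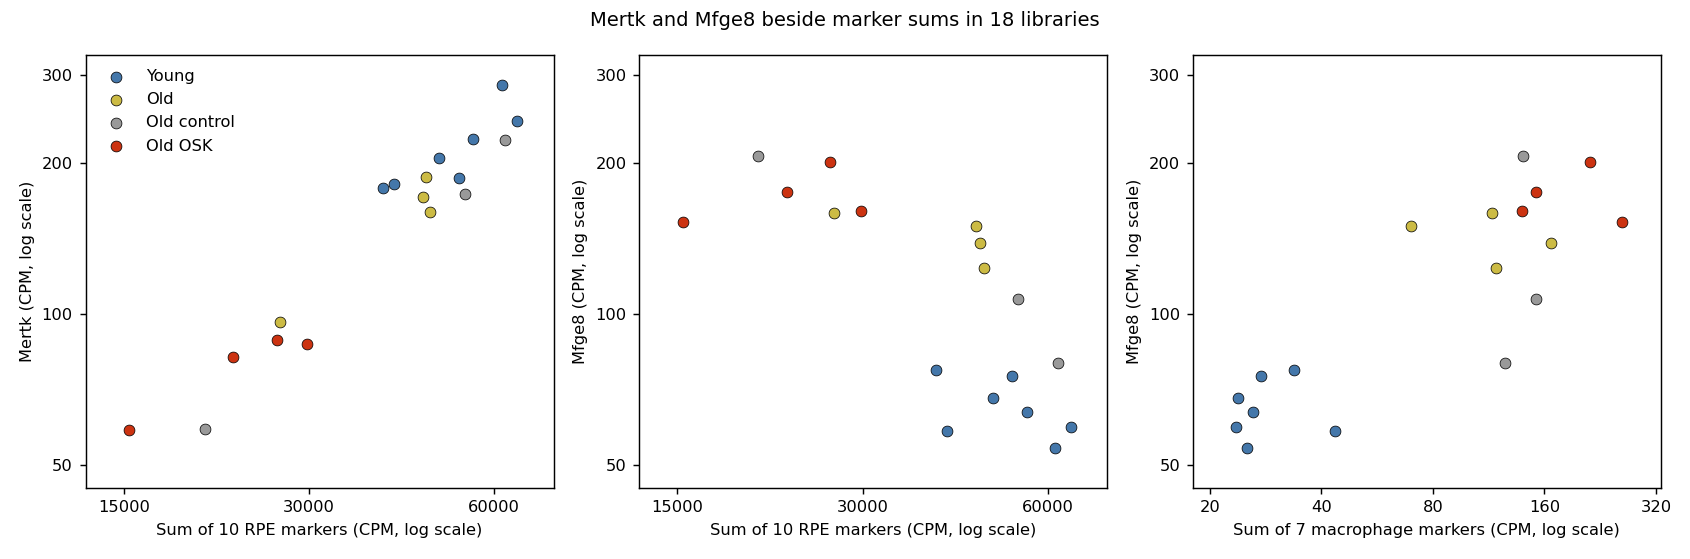
From left to right, Mertk against the sum of 10 RPE markers, Mfge8 against the same sum, and Mfge8 against the sum of 7 macrophage markers (Csf1r left out), all in TMM-scaled CPM on log axes with 1 point per library coloured by group. Mertk rises with the RPE markers (r = 0.97), Mfge8 falls with them (r = -0.76), and the lowest Old control point of the Mertk panel is replicate 2, at 58.9 CPM.

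The genes most like Mertk over the 18 libraries, out of 10233 genes whose log2 CPM averaged 3 or more, were Plce1 (r = 0.993), Col8a2 (0.992), Fgfr2 (0.991), Prkcq (0.99) and Csf1r (0.989). Their mean levels fell in the same order of groups, for example from 2425 CPM in Young to 1811 in Old, 1712 in Old control and 800.1 in Old OSK for Col8a2, a collagen of basement membranes. Tyro3 was also lower on average in the aged groups, but its highest Young values were those of the M-named libraries. Of the M-named aged libraries, Old control replicate 3 was the highest of its group (152.5 CPM). Old control replicate 2 (76.2) and Old OSK replicate 4 (84.1) were the lowest of theirs. Against the Young libraries without M the log2 fold change of Tyro3 in Old OSK was -0.12, and -0.53 against all Young libraries. Itgb5 was low on average in all 3 aged groups. The pattern of Itgb5 was most like that of Gga2 (0.977), 9530068E07Rik (0.947), Nid2 (0.939), Scara5 (0.937) and Renbp (0.934). Gga2, an adaptor of Golgi-to-lysosome sorting, stood at 69.95 CPM in Young and at 48.4, 50.9 and 51 CPM in Old, Old control and Old OSK. The list of genes like Mertk holds no member, and neither does that of Itgb5.

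Of 51 other genes of the pathway (other ligands, other receptors, engulfment and phagosome maturation), all tested, 3 were higher and 3 lower in Old against Young, where 9.56% of all tested genes changed, with a median log2 difference of -0.07. The number called ran from 1 to 9 as each library was left out, was 1 with the letter M as covariate and 0 with the rod score. Over all genes the number called also moved, from 393 to 2140 as each library was left out, and was 600 with the letter M. That with the rod score is given in the last section. The lower ones were the sheddase Adam10 (-0.37, adjusted p = 0.0146), the scavenger receptor Scarb1 (-0.64, adjusted p = 0.0343) and the endosomal lipid kinase Pikfyve (-0.32, adjusted p = 0.0314). The higher ones were galectin-3 (Lgals3, 2, adjusted p = 0.0319), the phagosome trafficking gene Mreg (1.38, adjusted p = 0.0385) and caveolin-1 (Cav1, 1.5, adjusted p = 0.047). The calls of 5 of these 6 were lost without Old replicate 4, with Lgals3 then at 1.23 and Mreg at 0.61, and over the 11 fits that each leave out a library Cav1 was called in only 2 and Pikfyve in 4. Adam10 was called in all 11 but not with the rod score as covariate (-0.3, adjusted p = 0.0704). Vav3 (1.52, adjusted p = 0.0511) and Anxa2 (1.54, adjusted p = 0.0666) came nearest among the genes not called.

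In Old OSK against Old control 1 of the 51 was called, the lysosomal membrane receptor Scarb2, where 0.728% of all tested genes were called, with a median of -0.02 over the 51. As each library was left out, that count was lowest at 0 without Old control replicate 1, where 0.0804% of tested genes were called. It was highest at 16 without Old control replicate 2, where 17.9% of tested genes were called. DESeq2 called 5 of the 51, where it called 1603 of 15907 genes. Scarb2 averaged 123 ± 2.68 CPM over the 3 Old control libraries and 169.6 ± 17.4 CPM over the 4 Old OSK libraries, with no overlap (0.46, SE 0.08, adjusted p = 0.0159 in edgeR). The call was lost without Old control replicate 1 or Old OSK replicate 1, 2 or 3 (adjusted p of up to 0.124). It was also lost over the 6 libraries with shared replicate numbers, both without the block (0.51, adjusted p = 0.0566) and with it (0.51, adjusted p = 0.0792). Scarb1, at -0.63 with all libraries (adjusted p = 0.0945), stood in those 6 at -0.76 without the block (adjusted p = 0.0934) and at -0.75 with it (adjusted p = 0.0499). Anxa5, a phosphatidylserine-binding annexin, was at 0.43 (adjusted p = 0.0594). In Old control against Old 0 of 51 were called, and the nearest were Thbs1 (0.58) and Adam10 (-0.18), both with an adjusted p of 0.9.

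In Old OSK against Young 11 of the 51 were higher and 16 lower, where 46.4% of all tested genes changed (25.1% higher and 21.4% lower), with a median of -0.08. With the rod score as covariate 16 of the 51 were called, where 28.6% of tested genes were called in that fit. By role, without a covariate, 3 of 5 other ligands rose and 1 fell, and 1 of 10 other receptors rose and 5 fell. Of 19 engulfment genes 3 rose and 7 fell, and of 17 phagosome maturation genes 4 rose and 3 fell. These counts by role are to be read against the 46.4% of the main fit. The 6 with the lowest p were Scarb2 (0.46, adjusted p = 0.000134), Anxa5 (0.53, adjusted p = 0.00021), Scarb1 (-1.11, adjusted p = 0.000244), Pikfyve (-0.5, adjusted p = 0.000394), Adam10 (-0.46, adjusted p = 0.000533) and Mreg (2.15, adjusted p = 0.000557). Among genes not called, Lamp1, a lysosomal membrane protein, stood at 0.19 (adjusted p = 0.0647), and the crystallin Cryba1 at -3.71 (adjusted p = 0.0677), with Young libraries spread from 0.579 to 298.5 CPM.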

How the data were processed

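Bulk RNA-seq of mouse RPE was analysed from 1 deposited table of raw counts per gene, whose columns were matched to 18 libraries by title. Per the labels' protocols, TRIzol-extracted polyA RNA went through SMART-Seq v4 cDNA synthesis and Nextera XT library preparation. The submitters' processing notes name STAR 2.7.1a and featureCounts 1.6.2, and GRCm38 (mm10) beside a human build. The annotation and strand setting are not given in the sources used here. The table carries no molecular identifiers for the PCR-amplified reads, so depth gives only a lower limit on error. No 2 replicates agreed within sampling noise.

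The model used edgeR 4.0.16 under R 4.3.3. The filterByExpr step (count of 10, total of 15) kept 15944 genes. TMM factors scaled the libraries, and glmQLFit and glmQLFTest were run on 4 group means over all 18 libraries, with Benjamini-Hochberg adjustment over all tested genes. A gene is called, or said to have changed, at an adjusted p under 0.05. SE is the absolute log2 fold change divided by the square root of F. Levels per kb use merged exon lengths of GENCODE vM21. Members and gene lists were chosen with earlier results of these data known. All 10 members are named. Of the other pathway genes those called are named (if over 6, the 6 with the lowest p) with up to 2 not called, and 5 genes most like Mertk and Itgb5. Besides RPE, rod and macrophage markers, markers of cones, endothelium, stroma, melanocytes and Schwann cells, red cells and Müller glia were summed per library. The fits were tested on simulated data. Alternatives were DESeq2 1.42.0, median-ratio size factors, other filters, the compared groups alone, a replicate block, the letter M or a rod score as covariate, and leaving out libraries.

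Deviations from the group means were correlated between same-numbered libraries only, so these r have no baseline from libraries of unlike number. Between Old OSK and Old control the r were 0.103, 0.421 and 0.339. Between Old control and Old these r were 0.197, -0.189 and 0.359, and between Old OSK and Young 0.021, 0.154, 0.091 and 0.352. The main fit was unpaired, and replicate numbers entered only as a block in an alternative fit. The labels do not say what a number marks.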

Additional observations from a re-analysis of the deposited data

How the results depend on the processing

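In Old against Young the number of members called ran from 2 (without Young replicate 5) to 4 (without Young replicate 3) as each library was left out, in Old OSK against Young from 6 (without Old OSK replicate 4) to 9 (without Young replicate 3), and in Old OSK against Old control from 0 to 4 (without Old control replicate 2). Over all genes these ranges were 393 (without Old replicate 4) to 2140, 5892 to 7293, and 13 to 2881, against 1524, 7401 and 116 with all libraries, and Old control against Old gave 0 throughout. A rod score as covariate left 5 members in Old OSK against Young. Without both Old replicate 4 and Old control replicate 2, a choice made after seeing the data, 4 members were called in Old OSK against Old control, with 23.3% of tested genes. DESeq2 called 4 members in Old against Young (adding Tyro3, -0.72, adjusted p = 0.0309) and 2452 and 1603 genes in Old against Young and Old OSK against Old control. The 2 vector-treated groups fitted alone gave 2 genes, the letter M as covariate 600 and 58 genes, and the rod score 497 genes in Old against Young and 4557 in Old OSK against Young.

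With the replicate number as a block, Old against Young gave 0 members, and the same 8 libraries without the block gave 1, with 0 and 191 genes. The r between same-numbered libraries of Old and Young were -0.05, -0.019, 0.144 and -0.193. Between Old OSK and Old control the block called 0 members (Mertk -0.82, adjusted p = 0.147) and 461 genes, against 990 in the same 6 libraries without it. Against those 6 libraries without the block, it changed no call of a member, and of Scarb2, Scarb1 and Anxa5 it added that of Scarb1.

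The differences that changed sign were all uncalled with every library in. With the block they were Gas6 (-0.14) and Pros1 (-0.08) in Old against Young, Tyro3 (0.09) in Old OSK against Old control, and Itgav (-0.26) and Itgb5 (-0.07) in Old control against Old. The same libraries with no replicate block gave -0.13, -0.05, 0.02, -0.11 and -0.05 for these and 0.03 for Axl in Old control against Old. The M covariate gave Gas6 -0.01 in Old against Young, Tyro3 0.2 and Cd36 0.08 in Old OSK against Old control, and Gas6 0.02, Tyro3 -0.1, Axl 0.01, Itgb5 -0.02 and Cd36 -0.03 in Old control against Old. The rod score gave Pros1 -0.17 in Old against Young. Without both named libraries, Itgb5 was -0.18 and Cd36 0.27 in Old OSK against Old control, and Mertk 0.19 and Cd36 -0.09 in Old control against Old.

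As each library was left out, the ranges of sign-changing differences in Old against Young were -0.08 to 0.11 (Gas6) and -0.13 to 0.13 (Pros1). In Old OSK against Old control they were -0.27 to 0.31 (Tyro3), -0.18 to 0.17 (Itgb5) and -0.19 to 0.27 (Cd36). In Old control against Old they were -0.19 to 0.13 (Gas6), -0.61 to 0.13 (Mfge8), -0.4 to 0.37 (Mertk), -0.12 to 0.44 (Tyro3, 0.46 without both named libraries), -0.42 to 0.21 (Axl), -0.4 to 0.37 (Itgav), -0.12 to 0.2 (Itgb5), -0.18 to 0.3 (Cd36) and -0.21 to 0.14 (Ptk2). Of all member and pathway log2 fold changes recomputed, 994 kept direction and call, 93 lost the call, 36 gained one and 58 changed sign. The causes were not tested. Cd36, at 32 to 320 counts a library, is the member whose depth limits it most.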
